A study of Macaca mulatta with 24 samples.

Results

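The mRNA levels of a set of T cell and cytotoxic lymphocyte genes were followed in the ileum of rhesus macaques after total body irradiation (TBI). The set was made of 10 gene symbols, CD3D, CD3E, CD3G, CD8A, CD4, CD2, GZMA, GZMB, PRF1 and CCL5, and its members were all array probes that the normalized table deposited with the study names by one of them. Of the 10 symbols, 9 had a probe, with 17 probes in all among the 43603 non-control probes of the array. No probe carried the symbol CD8A. All 17 probes were well above background on all 24 arrays and were tested together with the other probes, 36108 in total. Where a gene had more than 1 probe, the brightest represents it.

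Each of the 24 arrays held ileum RNA of 1 young adult male macaque without known disease, so each n below counts animals. The 4 controls were sham irradiated (0 Gy). The other animals were exposed once, over the whole body, to cobalt gamma rays, at a dose of either 6.7 or 7.4 Gy. At each dose, 4 animals were euthanized on day 4, 4 on day 7 and 2 on day 12. The same 4 controls, labelled day 4, served as the baseline for both doses and every day, so all comparisons with controls share these animals. The RNA was extracted from whole gut tissue. In such bulk tissue, fewer lymphocytes and less of a transcript per lymphocyte cannot be told apart.

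T cells recognize antigen through the T cell receptor, whose signal is carried into the cell by the CD3 chains. CD4 and CD8 are coreceptors that divide T cells into helper and cytotoxic classes, and CD2 is an adhesion receptor of T cells and natural killer (NK) cells. Cytotoxic lymphocytes kill their targets with granules that hold perforin, which opens the target membrane, and granzymes, proteases that start cell death. CCL5 is a chemokine that activated T and NK cells release and that draws in further leukocytes. The small intestine is rich in such cells, both between the epithelial cells and in the lamina propria, and lymphocytes are among the cells most sensitive to radiation.

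Signals are given as log2 of the background-subtracted intensity minus the 75th percentile of the array, so that 0 is the level of that percentile and a difference of 1 is a factor of 2. Between 72.7% and 88.1% of probes were well above background on an array, and no spot was saturated. The arrays lay on 6 slides of 4 positions. The controls were all in position 1, the day 4 arrays in positions 1 and 2, the day 7 arrays in positions 3 and 4 and the day 12 arrays in position 4, so that position cannot be told apart from a difference between day 7 or day 12 and the controls or day 4. The control arrays were all scanned on the first of 2 scan days and the irradiated arrays on both. Control replicate 1 stood apart. The mean signal of 4 smooth muscle genes was 3.11 in it, against 5.10 to 5.20 in the other controls and 4.60 to 5.71 after TBI, and it had the highest control value of all 9 members. In day 4 6.7 Gy replicate 4, the mean signal of 4 neutrophil genes was -0.09, against -3.50 to -1.74 on the other arrays.

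On day 7 after TBI, the CD3 chains and CD2 were lower than in the unirradiated ileum, but none of them passed without control replicate 1. With both doses pooled (n = 8 against 4), CD3D fell 1.80-fold, CD3E 1.75-fold, CD3G 1.83-fold and CD2 1.71-fold. The means of GZMA, GZMB and CCL5 were 2.23-fold, 2.12-fold and 2.27-fold lower, but these differences did not pass the test, and the genes varied more between animals of the same group. On day 4 and day 12, no member passed against the controls.

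CD3D encodes the delta chain of CD3. Its signal was 2.07, 1.55, 1.89 and 1.37 in the 4 controls. On day 7 it was 0.75, 0.78, 0.92 and 1.37 after 6.7 Gy and 0.92, 0.94, 0.98 and 0.39 after 7.4 Gy. All 8 day 7 animals lay below all controls, although the highest of them and the lowest control differed by less than 0.01. The difference was -0.84 on the log2 scale (SE 0.18, adjusted p = 0.0206, limma).

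CD3G encodes the gamma chain. The controls had signals of -0.20, -0.64, -1.04 and -1.08. The day 7 animals had -1.51, -1.47, -1.97 and -1.17 after 6.7 Gy and -1.33, -1.52, -1.54 and -2.36 after 7.4 Gy, again all below every control. The difference was -0.87 (SE 0.19, adjusted p = 0.0267, limma). Without control replicate 1 it was -0.69 (adjusted p = 0.15). A second CD3G probe gave -0.82 (SE 0.19, adjusted p = 0.0335, limma).

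CD3E encodes the epsilon chain, which every T cell receptor complex needs. Its signal was 1.01, 0.53, 0.76 and 0.22 in the controls. On day 7 it ranged from -0.57 to 0.25 with a median of -0.14, and 1 animal (6.7 Gy replicate 2) reached above the lowest control. The difference was -0.81 (SE 0.20, adjusted p = 0.0459, limma). It no longer passed in 9 of 12 fits with 1 array left out and in 5 of 11 processing settings, and was -0.68 (adjusted p = 0.202, limma) without control replicate 1.

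**Figure D1:**
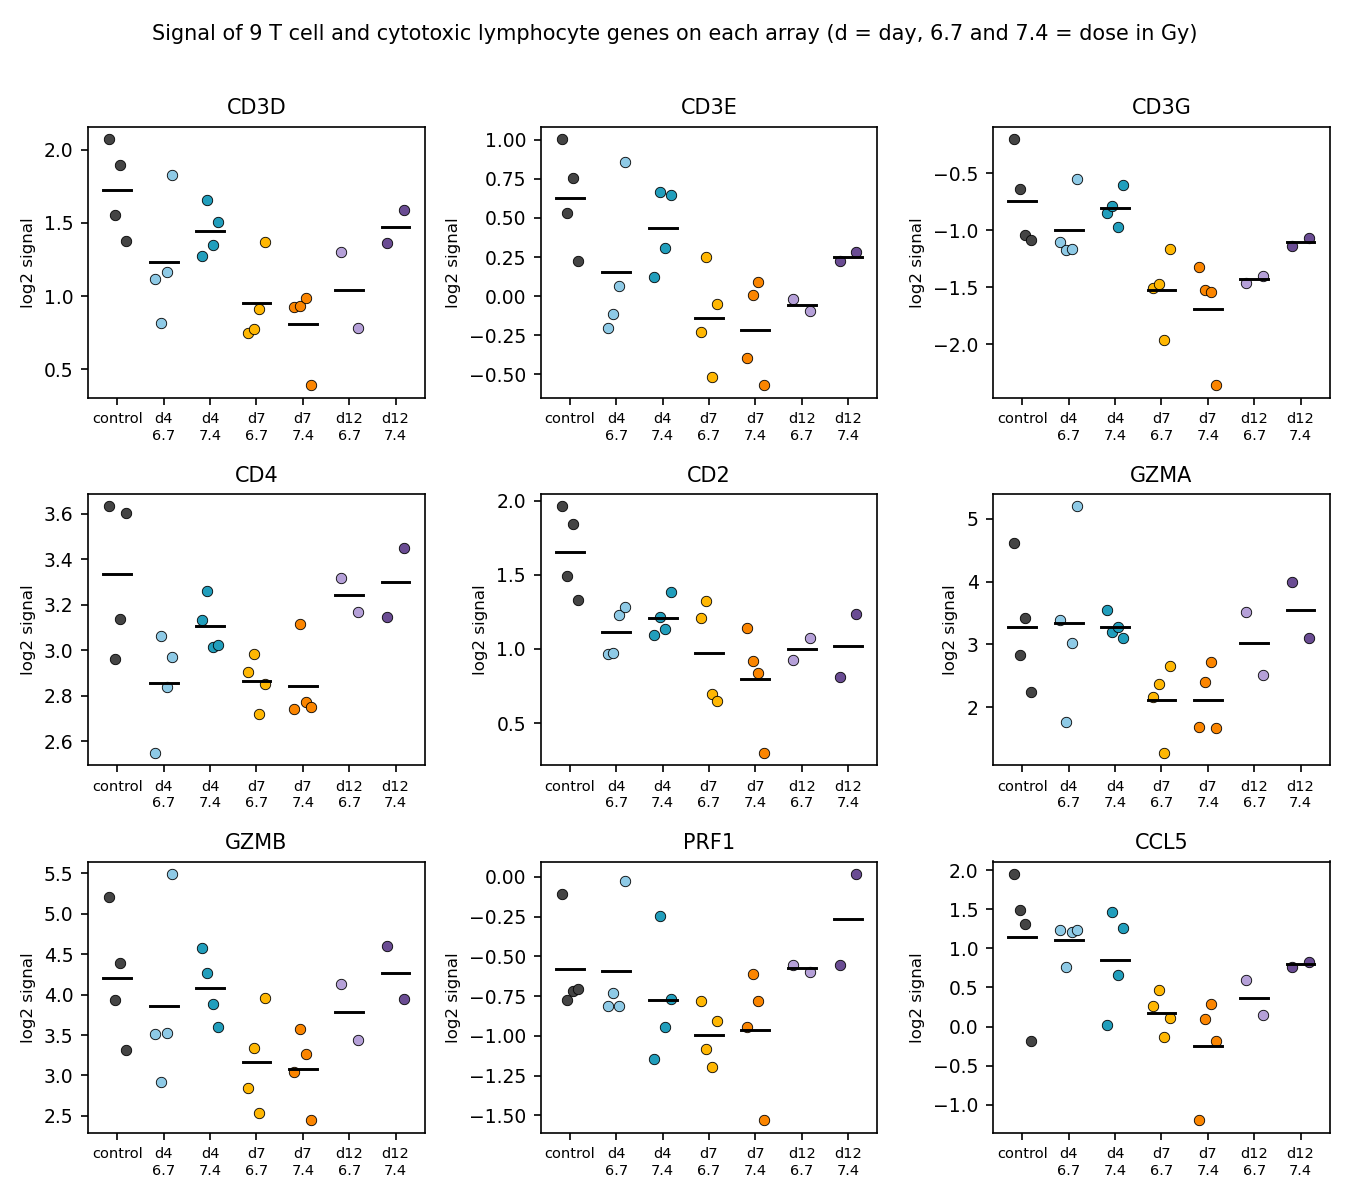
Signal of the 9 genes on each of the 24 arrays (vertical axis, log2 intensity minus the 75th percentile of the array), with 1 point for each animal and a bar at the mean of each of the 7 groups. All day 7 points of CD3D, CD3G and CD2 lie below all control points, and GZMA, GZMB and CCL5 spread most within a group.

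CD2, the adhesion receptor, had signals of 1.96, 1.49, 1.84 and 1.33 in the controls. On day 7 it was 1.21, 1.32, 0.70 and 0.65 after 6.7 Gy and 1.14, 0.92, 0.84 and 0.30 after 7.4 Gy. No day 7 animal overlapped with the controls, and the difference was -0.77 (SE 0.16, adjusted p = 0.0177, limma). The second, dimmer CD2 probe had a mean of -2.97 in the controls and -3.67 on day 7 and did not pass. CD4, the helper T cell coreceptor that macrophages also carry, had the smallest spread of the members. It was 3.63, 2.96, 3.14 and 3.60 in the controls and 2.72 to 3.12 (median 2.81) on day 7, so that the groups overlapped. The difference of -0.48 (SE 0.13, adjusted p = 0.0829, limma) did not pass. Of 12 fits with 1 array left out, it did not pass in 11. It passed without control replicate 2 (-0.60, adjusted p = 0.0284, limma) and was -0.38 (adjusted p = 0.309, limma) without control replicate 1.

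The granzymes differed widely between animals given the same treatment. GZMA encodes granzyme A. Its signal was 4.62, 2.84, 3.42 and 2.24 in the controls, a 5.2-fold range, and 1.27 to 2.73 (median 2.27) on day 7. Of the 8 day 7 animals, 4 lay below the lowest control, and the difference of -1.16 (SE 0.48, adjusted p = 0.291, limma) did not pass. GZMB, granzyme B, had control signals of 5.21, 3.93, 4.39 and 3.32 and day 7 signals of 2.44 to 3.96 (median 3.15), with a difference of -1.08 (SE 0.41, adjusted p = 0.237, limma). Control replicate 1 was the highest control for both. Without it the differences were -0.71 for GZMA and -0.75 for GZMB. PRF1, which encodes perforin, was -0.11, -0.78, -0.72 and -0.70 in the controls and -1.53 to -0.61 (median -0.93) on day 7, and its 95% confidence interval (CI), -0.82 to 0.02, included 0.

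CCL5 had signals of 1.96, 1.50, 1.32 and -0.18 in the controls and -1.20 to 0.47 (median 0.10) on day 7. The first 3 controls lay above all day 7 animals, and control replicate 4 lay among them. The difference was -1.18 (SE 0.33, adjusted p = 0.0904, limma). Leaving out control replicate 4 moved it to -1.63 (adjusted p = 0.0102, limma), and leaving out control replicate 1 to -0.92.

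Counted over the set, 4 of 9 members passed at an adjusted p under 0.05 with a lower level on day 7, while 0.967% of all tested probes did so. None reached a 2-fold change as well by limma, which 0.449% of probes did. The methods' t-test gave 3 members with at least a 2-fold change at an unadjusted p under 0.05 and none after Benjamini-Hochberg adjustment, and 0.961% of probes met the first of these rules with a lower level. At an unadjusted p under 0.05, 8 members (all but PRF1) were lower, against 7.15% of probes. The change was below 0 for 9 of 9 members and for 53% of probes. In 3 of 9 members no day 7 animal overlapped with the controls, as in 1.52% of probes. The median change of the members was -0.84, and that of all tested probes was -0.02. How many passed depended on the animals included. Without control replicate 1, none of the members passed (median -0.69, with adjusted p = 0.113 for CD3D and 0.0999 for CD2 by limma). Only 1 passed without control replicate 3, 2 passed without day 7 6.7 Gy replicate 3, and 5 passed without control replicate 4. With slide as a block 2 passed, CD3G and CD2.

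Within slides, a day 7 array could be set against the control on the same slide in 6 cases, which share 4 controls. CD3D, CD3E, CD3G, CD2 and PRF1 were lower than that control in 6 of 6, with medians of -1.03, -1.01, -1.12, -0.94 and -0.57. CD4, GZMA, GZMB and CCL5 were lower in 5 of 6, with medians of -0.57, -1.53, -1.67 and -1.56. Of the 6 arrays, 2 lay beside control replicate 1, and without them the medians were -0.88 for CD3D, -0.70 for CD3E, -0.88 for CD3G, -0.91 for CD2, -0.39 for PRF1, -0.31 for CD4, -0.82 for GZMA, -1.04 for GZMB and -1.24 for CCL5. On day 4, with 4 such cases, CD2 was lower than the control of its slide in 4 of 4 (median -0.47) and CD3G in 1 of 4 (median 0.14). GZMA and GZMB were likewise lower in 1 of 4 and had medians of 0.54 and 0.57. CD4 and CCL5 were lower in 3 of 4 (medians -0.17 and -0.50), and CD3D, CD3E and PRF1 in 2 of 4 (-0.17, -0.15 and 0.02). Without the day 4 array beside control replicate 1, the medians were -0.21 for CD2, 0.19 for CD3G, 0.95 for GZMA and 0.95 for GZMB. They were 0.27 for CD3D, 0.33 for CD3E, 0.46 for PRF1, -0.005 for CD4 and -0.26 for CCL5. On day 12, with 2 such cases, CD3D, CD3E, CD3G and CD2 were lower in 2 of 2. CD4, GZMB and CCL5 were lower in 1 of 2, and GZMA and PRF1 in 0 of 2.

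**Figure D2:**
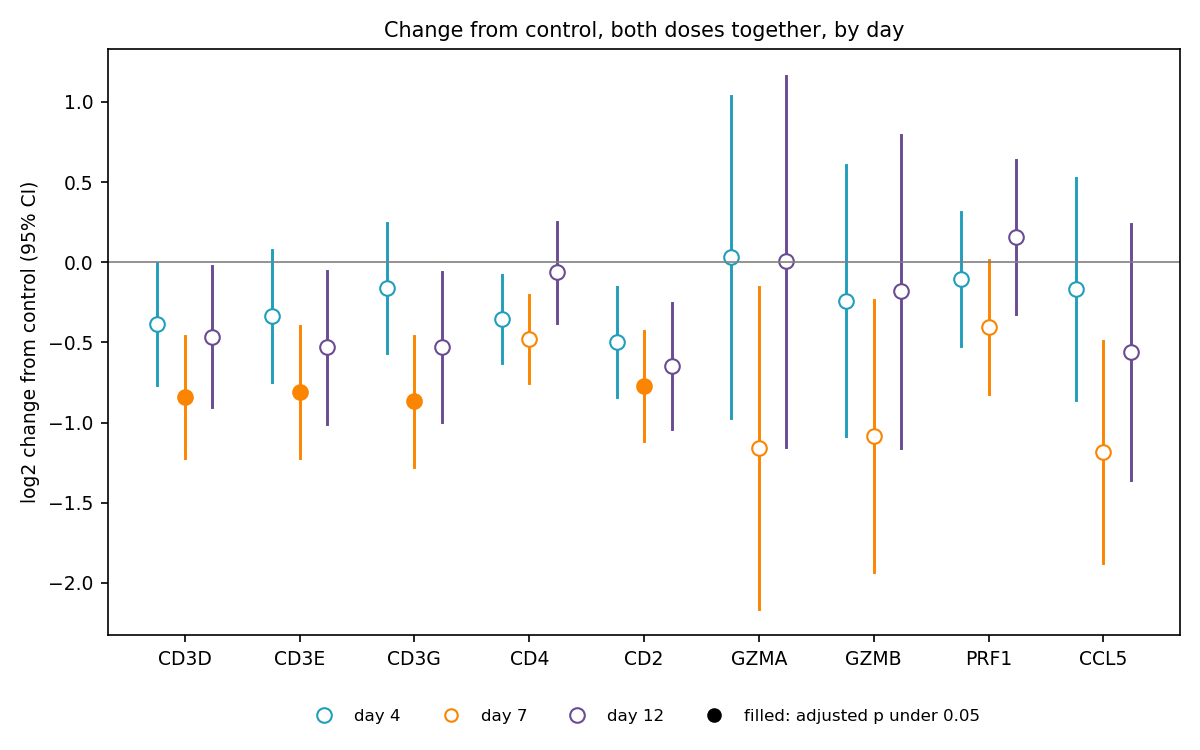
Difference from the controls (vertical axis, log2, with the 95% CI) for each of the 9 genes on days 4, 7 and 12, both doses together, where a filled point has an adjusted p under 0.05. Filled points appear on day 7 only, for CD3D, CD3E, CD3G and CD2.

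On day 4 (n = 8 against 4) the members' median was -0.24, against -0.09 over all tested probes. With array position as a covariate it was -0.71. In that fit, position 1 was set apart from position 2 only by day 4 6.7 Gy replicates 1 and 2 against 3 and 4. These pairs were scanned on different days, so position cannot be told apart from scan day there. Without control replicate 1 the members' median was 0.02. No member passed at an adjusted p under 0.05, where 4.66% of probes were lower. At an unadjusted p under 0.05, 3 members were lower, against 16% of probes, and by the methods' t-test 2 members were, against 13.7%. The 3 were CD2 (-0.50, SE 0.16, adjusted p = 0.0601, limma), CD4 (-0.35, SE 0.13, adjusted p = 0.0913) and CD3D (-0.38, SE 0.18, adjusted p = 0.175). GZMA was spread from 1.76 to 5.20 with a median of 3.23 and its mean differed from that of the controls by 0.03 (95% CI -0.97 to 1.03). The change of CD3G was -0.16 (95% CI -0.57 to 0.24).

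The difference between days 4 and 7 (n = 8 against 8) does not use the controls' levels, although its error is estimated over all 7 groups. With only the groups compared in the fit, 2 members passed, CD3G and CCL5. CD3G was 1.63-fold lower on day 7 than on day 4 (-0.71, SE 0.16, adjusted p = 0.00702, limma), CCL5 2.03-fold (-1.02, SE 0.27, adjusted p = 0.0182), GZMA 2.28-fold (-1.19, SE 0.39, adjusted p = 0.0498) and CD3D 1.38-fold (-0.46, SE 0.15, adjusted p = 0.047). The changes of CD3E (-0.47, SE 0.16, adjusted p = 0.0573) and GZMB (-0.84, SE 0.33, adjusted p = 0.0945) did not pass. For CCL5, the day 4 signals were 1.24, 0.76, 1.22 and 1.23 after 6.7 Gy and 0.02, 1.47, 0.66 and 1.26 after 7.4 Gy. Of these 8 animals, only the first 7.4 Gy animal lay below the highest day 7 animal (0.47). For CD3G the day 4 range was -1.18 to -0.55, and the day 7 range -2.36 to -1.17. Thus 4 of 9 members were lower, against 5.56% of probes, and 2 of these, GZMA and CCL5, changed at least 2-fold, against 0.41% of probes. The members' median was -0.47, that of all probes 0.05. CD3G and CCL5 kept an adjusted p under 0.05 whichever of the 16 animals was left out, but the change of CCL5 then ranged from -1.16 to -0.86, and the number of members that passed with at least a 2-fold change from 0 to 2. CD3D no longer passed in 13 of 16 such fits and GZMA in 14 of 16, and GZMA was -0.88 without day 4 6.7 Gy replicate 4, its highest animal at 5.20. Markers of other cells also differed over this step. By adjusted p, 6 of 8 genes of all leukocytes and 5 of 8 macrophage genes were lower on day 7 than on day 4, and 3 of 8 epithelial genes were higher. Their part in the members' changes was not tested.

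On day 12 there were 4 animals. CD2 was 0.92, 1.07, 0.81 and 1.23, below all controls (-0.65, SE 0.19, adjusted p = 0.181, limma), as in 3% of probes. CD3D was 1.30, 0.78, 1.36 and 1.59, CD3E -0.02, -0.10, 0.22 and 0.28, and CD3G -1.46, -1.40, -1.14 and -1.07. Each of these overlapped with the controls, and their changes of -0.47 (SE 0.21, adjusted p = 0.494), -0.53 (SE 0.23, adjusted p = 0.467) and -0.53 (SE 0.22, adjusted p = 0.464) did not pass by limma. The cytotoxic genes had means close to those of the controls, with changes of 0.00 for GZMA (95% CI -1.15 to 1.16), -0.18 for GZMB (-1.16 to 0.80) and 0.16 for PRF1 (-0.33 to 0.64). At an unadjusted p under 0.05, 4 of 9 members were lower, against 4.67% of probes, and none passed after adjustment, where 0.402% of probes were lower. The members' median was -0.47, that of all probes 0.03, and without control replicate 1 the members' median was -0.29.

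From day 7 to day 12 the members' median change was 0.42, against 0.04 for all probes. None passed after adjustment, where 0.161% of probes were higher. At an unadjusted p under 0.05, 4 of 9 were higher, against 8.35% of probes. They were GZMA (1.16, SE 0.48, adjusted p = 0.278, limma), GZMB (0.90, SE 0.41, adjusted p = 0.317), PRF1 (0.56, SE 0.20, adjusted p = 0.22) and CD4 (0.42, SE 0.13, adjusted p = 0.165). The CD3 chains differed by 0.28 to 0.38. Between days 4 and 12 the median was -0.08, with CD4 higher at an unadjusted p under 0.05 (0.29, SE 0.13, adjusted p = 0.125), as were 21.4% of probes.

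At each dose alone the number of animals per group was 4 or 2. On day 7 after 7.4 Gy, CD3D (-0.92, adjusted p = 0.0379, limma), CD3G (-0.95, adjusted p = 0.0451) and CD2 (-0.86, adjusted p = 0.0283) fell, so that 3 of 9 members passed, against 0.72% of probes, and 7 of 9 had an unadjusted p under 0.05, against 7.55%. None of them passed without control replicate 1, or without any one of 7.4 Gy replicates 2, 3 and 4, and 4 members passed without control replicate 4. Across 11 processing settings, 0 to 3 members passed. Not past the threshold at this dose were CD3E (-0.85, adjusted p = 0.0845), CCL5 (-1.40, adjusted p = 0.0919), CD4 (-0.49, adjusted p = 0.147) and GZMB (-1.13, adjusted p = 0.298).

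After 6.7 Gy on day 7 the same changes were -0.77 for CD3D (adjusted p = 0.137, limma), -0.77 for CD3E (0.189), -0.79 for CD3G (0.167), -0.69 for CD2 (0.142), -0.47 for CD4 (0.249), -1.16 for GZMA (0.532), -1.04 for GZMB (0.492) and -0.97 for CCL5 (0.398), each value in parentheses being the adjusted p. None passed, where 0.354% of probes did with a lower level, and 8 members had an unadjusted p under 0.05, against 4.79% of probes. The median over members was -0.77 after 6.7 Gy and -0.92 after 7.4 Gy.

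On day 4, 4 members had an unadjusted p under 0.05 after 6.7 Gy, against 13.7% of probes. They were CD3D (-0.49, adjusted p = 0.174, limma), CD3E (-0.48, adjusted p = 0.217), CD4 (-0.48, adjusted p = 0.0852) and CD2 (-0.54, adjusted p = 0.109). After 7.4 Gy it was CD2 alone (-0.45, adjusted p = 0.152), against 12.5% of probes. On day 12, with 2 animals, CD3D (-0.68, adjusted p = 0.435), CD3E (-0.69, adjusted p = 0.47), CD3G (-0.69, adjusted p = 0.461) and CD2 (-0.66, adjusted p = 0.372) were lower at an unadjusted p under 0.05 after 6.7 Gy, against 3.71% of probes, and CD2 (-0.64, adjusted p = 0.417) after 7.4 Gy, against 4.83% of probes. At these doses and days none passed after adjustment, where 1.23% (6.7 Gy) and 3.1% (7.4 Gy) of probes were lower on day 4, and 0.105% and 0.0305% on day 12.

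The doses were also compared directly. No member differed between 7.4 Gy and 6.7 Gy at an unadjusted p under 0.05 by limma on any day (by the methods' t-test 2 were higher after 7.4 Gy on day 12, against 2.37% of probes), but the intervals were wide. On day 7 the difference (7.4 Gy minus 6.7 Gy) had a 95% CI of -0.58 to 0.29 for CD3D, -0.56 to 0.39 for CD3E, -0.63 to 0.31 for CD3G and -0.57 to 0.22 for CD2. It was -1.15 to 1.16 for GZMA and -1.22 to 0.37 for CCL5. A 2-fold difference of GZMA between the doses therefore lies within the interval, whereas for CD4 the interval of -0.34 to 0.30 leaves out a 2-fold difference. Of all probes, 1.94% were lower and 3.61% higher after 7.4 Gy at an unadjusted p under 0.05 on day 4, 2.2% and 1.82% on day 7, and 4.39% and 1.86% on day 12. The members' median difference was 0.20 on day 4 (range -0.26 to 0.28), -0.09 on day 7 (-0.43 to 0.03) and 0.33 on day 12 (0.02 to 0.53). With 1 array left out these medians ranged from 0.05 to 0.35 on day 4, from -0.26 to 0.04 on day 7 and from 0.17 to 0.35 on day 12. The extremes came without day 4 6.7 Gy replicates 2 and 4, day 7 6.7 Gy replicate 3 and 7.4 Gy replicate 4, and day 12 6.7 Gy replicates 2 and 1. With array position as a covariate the day 4 median difference turned to -0.05. That fit rests on day 4 6.7 Gy replicates 1 and 2 (position 1) against 3 and 4 (position 2), which were scanned on different days. On day 12 the 6.7 Gy arrays lay on slides 3 and 4 of the first scan day and the 7.4 Gy arrays on slides 5 and 6 of the other, so that dose, slide and scan day cannot be told apart there. On day 12, with 2 animals per dose, the CI was -0.19 to 1.05 for CD3D and -1.11 to 2.17 for GZMA.

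The members differed in how much animals of 1 group varied. The standard deviation within groups, pooled over the 7 groups with 17 degrees of freedom, was 0.21 for CD4, 0.27 for CD2, 0.30 for CD3D, 0.33 for CD3G and CD3E and 0.34 for PRF1. It was 0.58 for CCL5, 0.71 for GZMB and 0.84 for GZMA. The granzymes and CCL5 thus had more scatter than the surface receptors, and their control ranges were 5.2-fold (GZMA), 4.4-fold (CCL5) and 3.7-fold (GZMB), against 1.55-fold to 1.85-fold for the others.

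Animals high in one granzyme were high in the other. After subtraction of each group's mean, Pearson's r over the 24 arrays was 0.93 between GZMA and GZMB, and without that subtraction r was 0.94 and Spearman's rho 0.91. Day 4 6.7 Gy replicate 4 had the highest values of both, 5.20 and 5.49, and control replicate 1 the next, 4.62 and 5.21. The CD3 chains also varied together within groups, with r = 0.73 between CD3D and CD3E, 0.69 between CD3D and CD3G and 0.69 between CD3E and CD3G, and CD3D followed GZMB with r = 0.81. CD4 stood apart, with r = 0.17 to CD3D, 0.32 to CD3E, 0.24 to CD3G, 0.12 to GZMA and -0.03 to CCL5, but 0.55 to PRF1. These values describe 24 arrays. The 2 genes of a pair share their array, its scaling and the cell content of the tissue piece, and both members of the GZMA and GZMB pair share the extreme arrays named above.

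**Figure D3:**
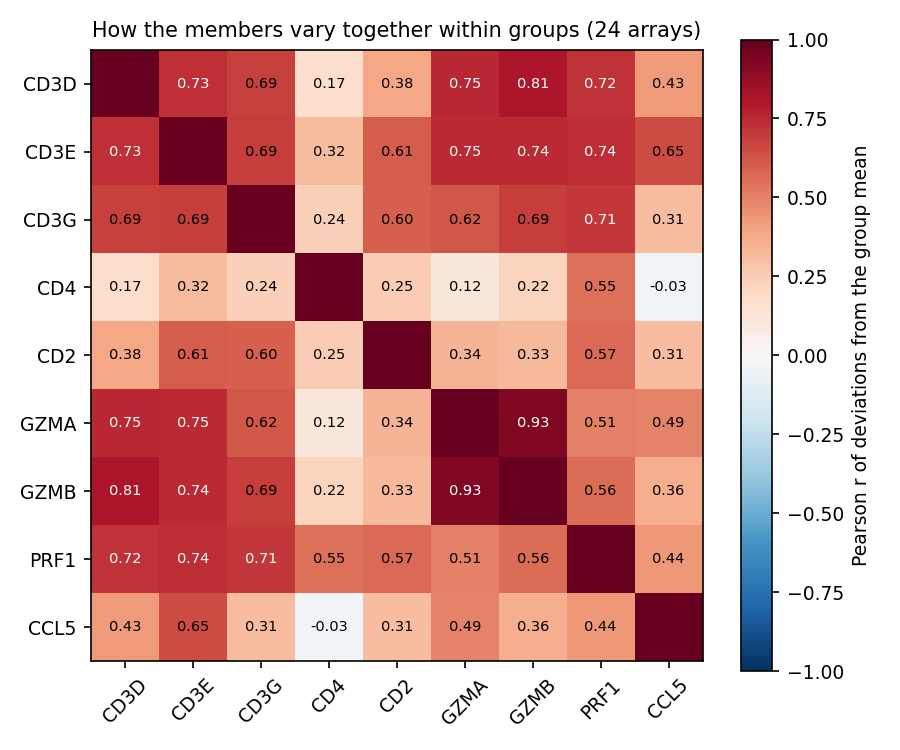
Pearson's r between the 9 genes over the 24 arrays after subtraction of each group's mean (colour and printed value, from -1 to 1). GZMA and GZMB reach 0.93, and 7 of 8 values of CD4 lie under 0.35.

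CD3E, CD3D and CD3G are consecutive protein-coding genes on 1 chromosome in the RefSeq annotation of the macaque, while CD4, CD2, PRF1, GZMA and CCL5 are not next to another member. GZMB lies beside GZMH, a closely related granzyme gene, and whether its probes also bind the GZMH transcript was not examined. The 2 GZMB probes had r = 0.98 over the 24 arrays, and the 2 probes of CD3G 0.94, of CD2 0.87 and of CD4 0.62. The second CD4 probe fell between days 4 and 7 (-0.66, SE 0.15, adjusted p = 0.00841, limma), where the brightest had -0.13 (95% CI -0.35 to 0.10), so that the probes of CD4 disagree on this step.

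CCL5 had 5 probes. The 4 brightest followed each other (r of 0.97 to 0.99 with the brightest), and each fell between days 4 and 7, with changes from -1.02 to -0.85 (adjusted p from 0.0182 to 0.0235, limma). The dimmest had r = -0.11 with the brightest. On that probe the 4 controls were -2.73 to -2.42 and the day 12 animals -2.52 to -2.03. It fell on day 4 (-0.39, SE 0.11, adjusted p = 0.0375), had -0.06 on day 7 (adjusted p = 0.865) and was higher on day 7 than on day 4 (0.33, adjusted p = 0.0251) and on day 12 than on day 4 (0.66, adjusted p = 0.00131). It was well above background on all 24 arrays. Over all 17 probes, 5 passed with a lower level on day 7 than in the controls, against 0.967% of tested probes. On day 7 against day 4, 9 of the 17 were lower, against 5.56%, and 1 was higher, against 7.63%.

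**Figure D4:**
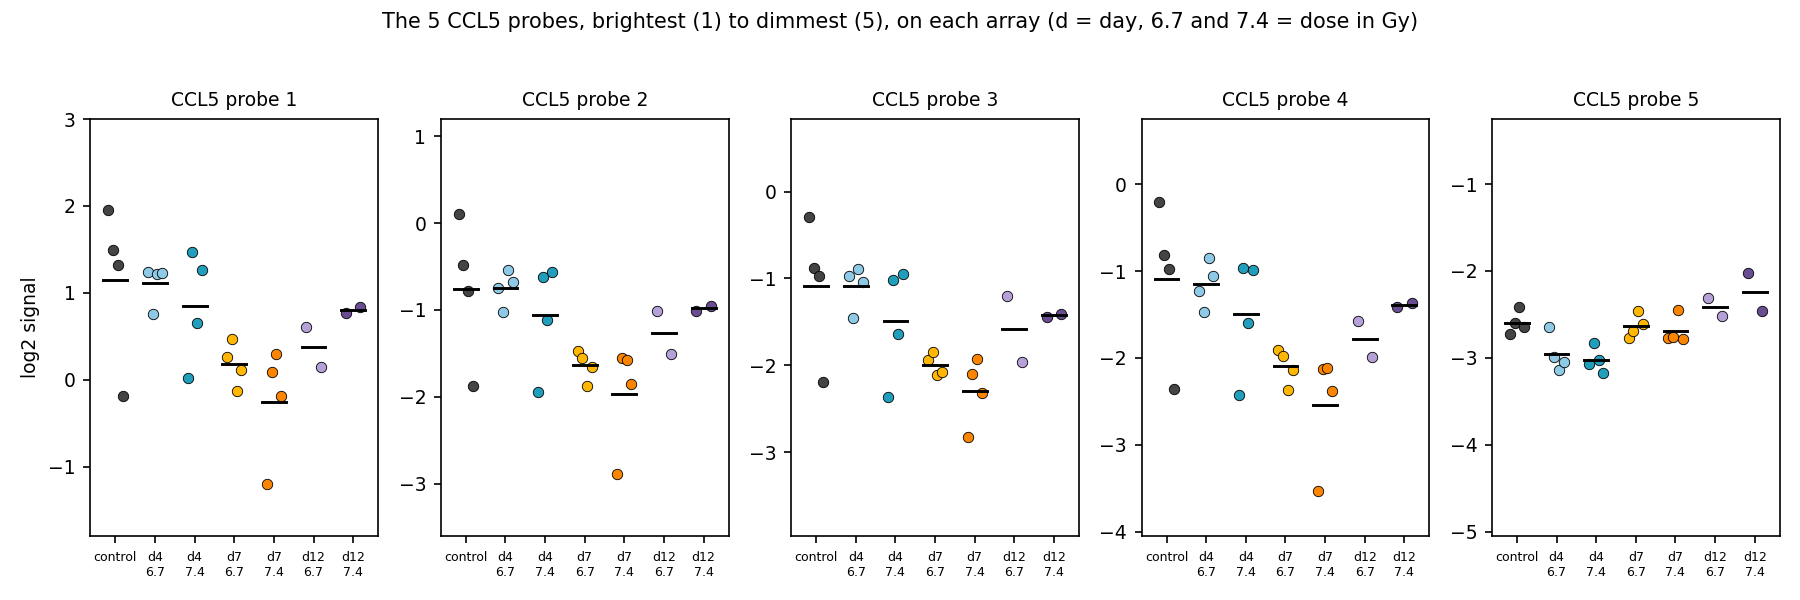
Signal of the 5 CCL5 probes on each array (vertical axis, log2 intensity minus the 75th percentile of the array), from the brightest probe to the dimmest, with arrays ordered by group. The first 4 probes rise and fall together, and the dimmest stays between -3.17 and -2.03 and does not follow them.

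CD8A, the coreceptor of cytotoxic T cells, has no value under its own symbol. The deposited table names 1 probe LOC698329, and RefSeq gives gene 698329 as CD8A. By the rule it is no member, and its values are given only beside them. Its mean was 0.30 in the controls and -0.24 on day 7, a difference of -0.53 that did not pass (adjusted p = 0.38, limma).

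Other genes of T cells and cytotoxic cells were read from 4 lists. All were compared with controls at both doses together. Of 17 genes of T cell receptor signalling, 11 were tested (LAT, TRAT1, UBASH3A, CD6 and CD8B had no probe). The list's median was -0.34, -0.68 and -0.60 on days 4, 7 and 12, and that of all probes -0.09, -0.02 and 0.03. Lower on day 7 were 4 of 11 by adjusted p. Of these, LCP2, the adaptor SLP-76, fell by 0.77 (adjusted p = 0.00922, limma), THEMIS, which acts in thymocyte selection, by 0.97 (adjusted p = 0.0137) and SH2D1A, the adaptor SAP, by 0.93 (adjusted p = 0.0104), all under 2-fold. No gene of this list passed on day 4 or day 12. LCP2 and THEMIS, and below TBX21, IL7R, GATA3, SRGN, CCL25 and CCR6, which changed less than 2-fold, were chosen for naming after their values were seen, and list genes that changed less than 2-fold were not followed across settings.

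Of 17 genes of naive, memory and regulatory T cells, 16 were tested. The medians for the same days were -0.34, -0.75 and -0.49. On day 7, 4 of 16 were lower. ICOS, a costimulatory receptor of activated and follicular helper T cells, fell 2.68-fold (-1.42, SE 0.27, adjusted p = 0.00722, limma). With normexp background correction of the spot medians, a setting chosen after seeing the data, its change was -0.71 and still passed, and by the methods' t-test its adjusted p was 0.0947. CD27, a receptor of the TNF family on naive and memory lymphocytes, fell 2.30-fold (-1.20, SE 0.25, adjusted p = 0.0177), which no longer passed without control replicate 1 (-1.15, adjusted p = 0.0778) or without control replicate 4. GATA3, the T helper lineage factor, fell by 0.87 on day 7 (adjusted p = 0.00385) and by 0.99 on day 12 (adjusted p = 0.0161), and IL7R, the receptor for the survival cytokine IL-7, fell on day 7 by 0.72 (adjusted p = 0.0415). CCR7, which guides naive and central memory T cells into lymphoid tissue, was -1.47 on day 7 (adjusted p = 0.0502) and fell 4.16-fold on day 12 (-2.06, SE 0.42, adjusted p = 0.0318). This no longer passed in 6 of 8 fits with 1 array left out, among them the one without control replicate 1 (-1.93, adjusted p = 0.0894), and was -1.37 (adjusted p = 0.225) as a mean over its probes. The only gene of the 4 lists that rose with both doses together was LEF1, a transcription factor that naive T cells share with intestinal crypt cells, on day 4 (0.99, SE 0.22, adjusted p = 0.0111). At 7.4 Gy alone it rose by 1.08 (adjusted p = 0.0178).

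Of 19 cytotoxic granule and effector genes, 14 were tested (GZMH, GNLY, CCL4, KLRB1 and KLRK1 had no probe), with medians of -0.30, -0.73 and -0.30 on the 3 days. CST7, which encodes cystatin F, an inhibitor of granule proteases, had the smallest adjusted p of this list on day 7. Its signal was 1.34, 1.02, 0.94 and 0.68 in the controls and -0.65 to 0.42 on day 7, without overlap, and it fell 2.11-fold (-1.08, SE 0.16, adjusted p = 0.00139, limma). It passed in each of 12 fits with 1 array left out. KLRD1, the CD94 receptor of NK cells and cytotoxic T cells, fell 2.50-fold (-1.32, SE 0.32, adjusted p = 0.0429), but did not pass in 9 of these 12 fits and was -1.12 (adjusted p = 0.191) without control replicate 1. It also failed in 4 of 11 processing settings and was -0.98 with normexp. SRGN, the proteoglycan core of granules, fell by 0.92 (adjusted p = 0.0399) and EOMES, a transcription factor of cytotoxic cells, by 0.90 (adjusted p = 0.0295). On day 4, EOMES fell by 0.68 (adjusted p = 0.0423) and TBX21, the factor T-bet, by 0.89 (adjusted p = 0.0452). None passed on day 12.

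Among these lists, the gut homing and intraepithelial lymphocyte genes held the largest change on days 4 and 7 with both doses together. Of 16, 14 were tested (ITGB7 had no probe, and CD69 was above background on no array), with medians of -0.53, -0.67 and -0.49. CCR9, the receptor that brings lymphocytes to the small intestine, was -0.93, -1.80, -1.63 and -0.83 in the controls and between -4.14 and -2.38 in all 20 irradiated animals, so that no irradiated animal overlapped with the controls. It fell 3.19-fold on day 4 (-1.68, SE 0.23, adjusted p = 0.000253, limma), 4.60-fold on day 7 (-2.20, SE 0.23, adjusted p = 3.27e-05) and 4.08-fold on day 12 (-2.03, SE 0.26, adjusted p = 0.00803). At each dose alone it also passed with at least a 2-fold change on each day, with changes from -2.40 to -1.67, and on day 12 it no longer passed in 4 of 6 fits with 1 array left out at 6.7 Gy and in 3 of 6 at 7.4 Gy. With both doses together it passed on days 4 and 7 in every fit with 1 array left out, and on day 12 in all but 1 of 8. It also passed in every processing setting on days 4 and 7, and in all but 2 of 11 on day 12. At 6.7 Gy alone it no longer passed in 2 of 12 settings on day 4, 1 of 11 on day 7 and 3 of 11 on day 12. At 7.4 Gy alone these were 1 of 12, 1 of 11 and 3 of 11.

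ITGA4, the alpha-4 integrin chain of gut homing lymphocytes, fell by 0.77 on day 4 (adjusted p = 0.0184, limma), 2.58-fold on day 7 (-1.37, SE 0.19, adjusted p = 0.000797) and 2.55-fold on day 12 (-1.35, SE 0.22, adjusted p = 0.00887). Its day 12 change no longer passed in 1 of 8 fits with 1 array left out and in 2 of 11 processing settings. CCL25, the epithelial ligand of CCR9, fell by 0.80 on day 4 (adjusted p = 0.0355) and had -0.25 on day 7 (adjusted p = 0.689) and 0.01 on day 12 (adjusted p = 0.992). CCR6 fell by 0.73 on day 7 (adjusted p = 0.0476) and 0.97 on day 12 (adjusted p = 0.0385). ITGAE, the CD103 integrin chain that holds lymphocytes in the epithelium, fell 2.31-fold on day 7 (-1.21, SE 0.30, adjusted p = 0.0479), on a dim probe above background on 19 of 24 arrays, and no longer passed in 8 of 12 fits with 1 array left out (-1.04, adjusted p = 0.201, without control replicate 1). It also failed in 8 of 10 processing settings, and with normexp its change was -0.27 (adjusted p = 0.281).

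At a single dose, the genes that passed with at least a 2-fold lower level besides CCR9 were mostly those of day 7 after 7.4 Gy. These included CCR7 (-2.31, adjusted p = 0.00748, limma), ICOS (-1.85), KLRD1 (-1.68), ITGA4 (-1.48), EOMES (-1.04) and SH2D1A (-1.03). EOMES no longer passed in 7 of 8 fits with 1 array left out, KLRD1 in 5 and SH2D1A in 3. With normexp EOMES was -0.48 (adjusted p = 0.107), SH2D1A -0.20 (adjusted p = 0.436) and KLRD1 -1.21 (adjusted p = 0.0524), and none of them passed, while ICOS was -0.87 and passed. CCR7 was -1.37 (adjusted p = 0.148) as a mean over its probes. The methods' t-test left none of these genes past an adjusted p of 0.05 at this dose. After 6.7 Gy on day 7 the genes were CST7 (-1.19) and ITGA4 (-1.26). There ITGA4 no longer passed in 2 of 8 fits with 1 array left out and in 1 of 11 processing settings, and CST7 in 2 of 11 settings. On day 12 after 6.7 Gy they were CCR7 (-2.68, adjusted p = 0.0404, limma) and ITGA4 (-1.41). Neither passed on day 12 in any of 6 fits with 1 array left out. No gene of the 4 lists differed between the doses by limma's adjusted p on any day. Of the 11, 16, 14 and 14 tested genes of the lists, 3, 3 and 2 in all did at an unadjusted p under 0.05 on days 4, 7 and 12. Of all probes, 1.94% were lower and 3.61% higher at that threshold on day 4, 2.2% and 1.82% on day 7, and 4.39% and 1.86% on day 12.

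**Figure D5:**
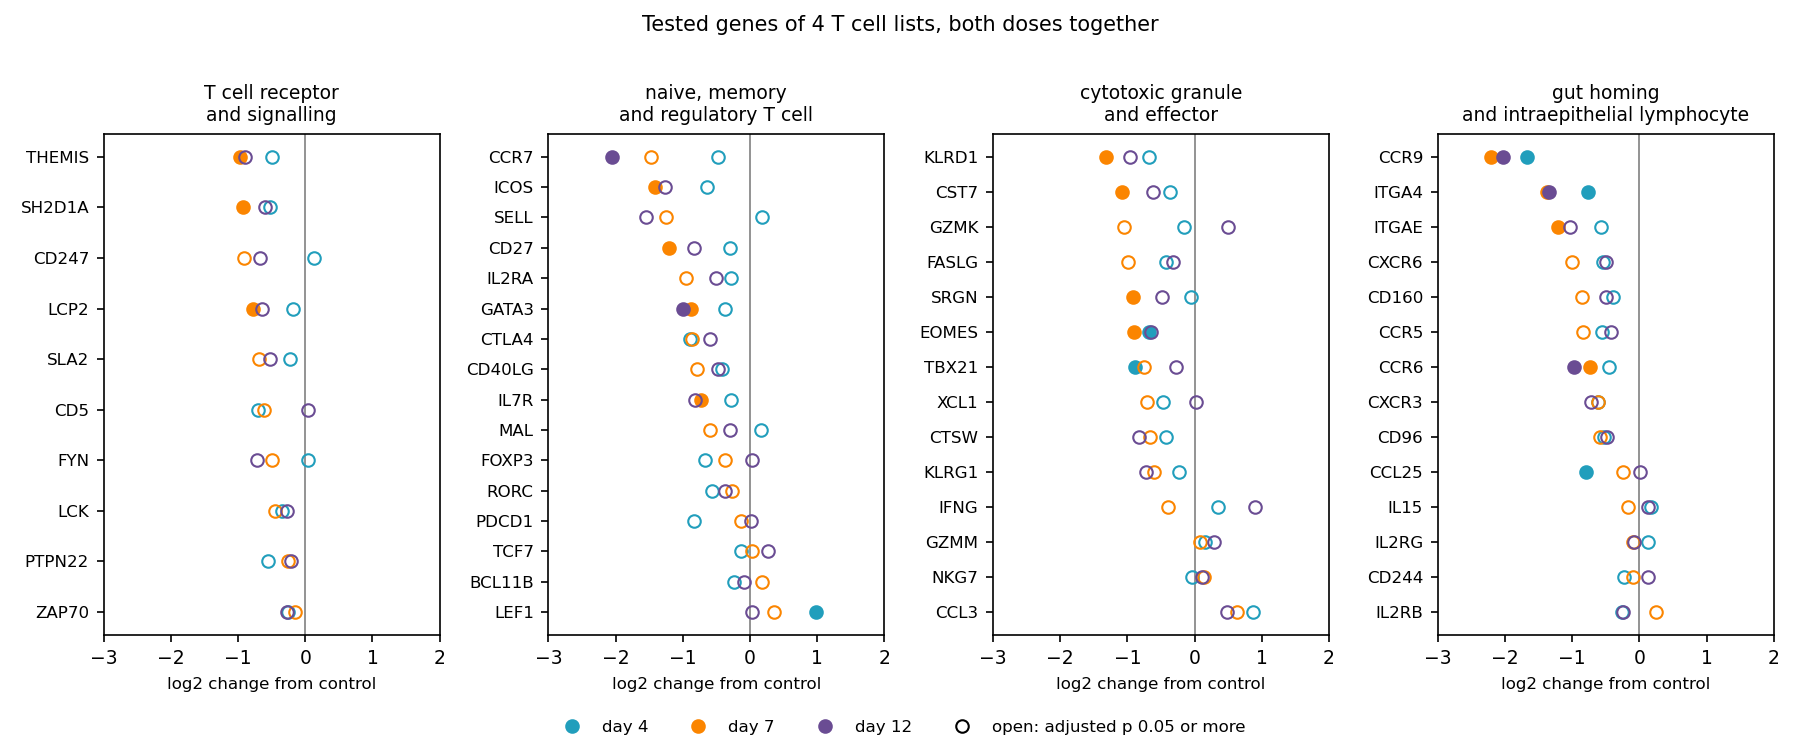
Difference from the controls (horizontal axis, log2, both doses together) of tested genes of the 4 T cell and cytotoxic lists on days 4, 7 and 12, where a filled point has an adjusted p under 0.05. CCR9 is the lowest point of the gut homing list on each day, and LEF1 on day 4 is the only filled point above 0.

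Some markers of other cells were also lower on days 4, 7 and 12, both doses together. On day 7, of 8 tested genes of all leukocytes, 6 were lower by adjusted p, with a list mean of 0.39 to 0.81 in the controls, -0.29 to -0.08 after 6.7 Gy and -0.46 to -0.17 after 7.4 Gy. Of 7 B cell genes 3 were lower (-2.94 to -1.03 in the controls, -4.33 to -2.27 on day 7), of 7 plasma cell genes 3 (0.34 to 1.76 and -1.64 to 0.02) and of 8 macrophage genes 2 (0.94 to 1.30 and 0.68 to 1.02). The 2 tested red blood cell genes had a mean of 3.98 to 4.92 in the controls and 0.39 to 1.27 on day 7, and 1 of them, HBB, was lower. None of 5 NK cell genes (-2.52 to -2.20 and -3.10 to -2.37), 8 epithelial genes (2.10 to 2.66 and 2.26 to 2.72), 4 smooth muscle genes, 4 neutrophil genes and 2 platelet genes passed on day 7, while 5 of 8 epithelial genes were lower on day 4. On that day, when no member passed and CCR9, ITGA4, CCL25, EOMES and TBX21 fell, 3 of 7 B cell genes, 4 of 7 plasma cell genes, 4 of 8 genes of all leukocytes and HBB were also lower by adjusted p, while of 8 macrophage genes none was lower and 1 was higher (list median 0.36). On day 12, when CCR9, ITGA4, CCR7, GATA3 and CCR6 fell, 3 of 8 genes of all leukocytes, 1 of 7 plasma cell genes, 1 of 8 macrophage genes and HBB were lower, and none of 7 B cell and 8 epithelial genes passed. At an unadjusted p under 0.05, 4 of the 7 B cell and 1 of the 8 epithelial genes were lower, against 4.67% of probes. The epithelial list's median was -0.13. The B cell list's median was -1.52, -1.67 and -1.33 on days 4, 7 and 12, and the plasma cell list's -0.83, -1.37 and -1.04. No marker gene with a probe was below background on every array, and of the 7 NK cell and 7 B cell genes with a probe, 3 each were above background on all 24. The part of these cells in the changes of the T cell genes was not tested.

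Among 14150 other genes with a tested probe, those whose signal was most like the mean of CD3D, CD3E and CD3G over the 24 arrays were LOC717810 (r = 0.90, rho = 0.85), GIMAP2 (r = 0.88, rho = 0.90) and GIMAP8 (r = 0.88), followed by CST7, SAMD9L, DOCK2, SIRPG, DOCK10, GPR18 and FMNL1 (r down to 0.84). GIMAP2 and GIMAP8 belong to a family of GTPases of lymphocytes, and SIRPG is a surface protein of T cells. Most like the mean of GZMA, GZMB and PRF1 were FAM26F (r = 0.85, rho = 0.82), FASLG (r = 0.85, rho = 0.73) and GBP1 (r = 0.81), and further OASL, GIMAP2, SAMD9L, TTPAL, CAPZA1 and APOL2 (r down to 0.78). FASLG is the ligand of the death receptor Fas, and GBP1 and OASL are known as interferon-responsive genes. GIMAP2 and SAMD9L were in both groups of 10. These likenesses are descriptions over arrays that share scaling and tissue content.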

How the data were processed

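Ileum RNA of 24 macaques was labelled with Cy3 and hybridized by the authors to single-colour Agilent rhesus arrays, 1 array per animal. The deposited intensities are background-subtracted spot signals from Agilent Feature Extraction 11.0.1.1. The authors' normalized values are log2, less the 75th percentile of each array, and their deposited form is centred per probe on the median. The log2 values were computed again here from the scanner intensities without that centring, with spots of a probe averaged. Groups were read from titles and day fields. The protocol text names another last day than the titles do, and day 12 of the titles was used.

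A probe entered the test if some group had it well above background on all of its arrays. For 15 comparisons, limma 3.58.1 (R 4.3.3) was used with 7 group means, 17 residual degrees of freedom and Benjamini-Hochberg adjustment within each comparison across all 36108 tested probes. A call needed an adjusted p under 0.05 and a fold change of at least 2. The fit was checked on simulated data. The number of animals limits the precision. Symbols came from the deposited annotation and, for list genes, also RefSeq.

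Members and lists were chosen with earlier results of these data known. Members are given a change with its error where the unadjusted p is under 0.05, list genes are named where called, and other named genes were chosen after their values were seen. Likeness is the Pearson correlation over 24 arrays. The same replicate numbers in different groups do not mark the same animal. Alternatives covered background correction, scaling, filters, blocks, covariates, the methods' t-test and leaving out each array. Sequences and genome positions of the probes were not used here, and some genes that the lists or the likeness count are not reported here.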

Additional observations from a re-analysis of the deposited data

Results flagged for a closer look

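Of 45 combinations of a member and a group of 4 animals, 6 held an array that lay apart from the other 3 by Dixon's test at the 95% level, where chance alone gives about 1 in 20. CD3D was 0.39 in day 7 7.4 Gy replicate 4, against 0.92 to 0.98 in the others. CD3G was -0.55 in day 4 6.7 Gy replicate 4, against -1.18 to -1.11. CD4 was 3.12 in day 7 7.4 Gy replicate 2, against 2.74 to 2.77. PRF1 was -0.11 in control replicate 1, against -0.78 to -0.70, and -0.027 in day 4 6.7 Gy replicate 4, against -0.81 to -0.73. CCL5 was 0.76 in day 4 6.7 Gy replicate 2, against 1.22 to 1.24. Day 4 6.7 Gy replicate 4 accounts for 2 of the 6, and it is the array with the high neutrophil signal.

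The change from the controls differed between day 7 and day 4 for 4 members, by limma's test of day 7 minus day 4, where 5.56% of probes were lower. These were CD3D (-0.46, adjusted p = 0.047), CD3G (-0.71, adjusted p = 0.00702), GZMA (-1.19, adjusted p = 0.0498) and CCL5 (-1.02, adjusted p = 0.0182). CD3D no longer passed in 13 of 16 fits with 1 array left out and GZMA in 14 of 16.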

How the results depend on the processing

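Among the changes of single genes that had an unadjusted p under 0.05 (members) or were called (list genes), no direction reversed under any setting run. Other members' changes were not followed one by one. The adjusted p of CD3G and CCL5 between days 4 and 7 stayed under 0.05 in all 11 settings and all 16 fits with 1 array left out, though CCL5 did not stay at 2-fold. With all arrays kept, 790 of the values for single genes kept their direction and side of the threshold, 107 no longer passed and 6 newly did. The numbers of members past an adjusted p under 0.05 that moved by over 1.5 times were as follows. For day 7 at 7.4 Gy against the controls (3 as reported) 1 passed with no filter on dim probes, 1 with slide as a block, 1 with the replicate block, 0 by the methods' t-test and 0 with only the groups compared. By that t-test no tested probe passed with at least a 2-fold change in this comparison. For day 7 at both doses (4 as reported) 2 passed with slide as a block, 0 by the methods' t-test and 1 with only the groups compared. Between days 4 and 7 (4 as reported, 2 of them at least 2-fold) 2 passed and 1 was at least 2-fold with no filter, with the replicate block, by the methods' t-test and with only the groups compared. Normexp on spot medians, chosen after seeing the data, left 1 at least 2-fold, and the mean over the probes of a gene left 0. On day 4 (0 as reported) normexp gave 1 at 6.7 Gy and 1 at both doses. The median of the members moved to -0.41 on day 12 at 6.7 Gy with slide as a block. With array position as a covariate it was -0.68 on day 4 at 6.7 Gy, -0.73 at 7.4 Gy, -0.71 at both doses, and the difference between doses on day 4 was -0.05, where 0.20 was reported. On day 4, position 2 could be set apart from position 1 only within the 6.7 Gy group, where position went with scan day. The causes were not tested.

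With 1 array left out, the members' median ranged from -0.55 to -0.080 for day 4 at 6.7 Gy, from -0.47 to 0.019 for day 4 at both doses and from -0.77 to -0.42 for day 12 at 6.7 Gy. The number past an adjusted p under 0.05 ranged from 0 to 1 for day 4 at 6.7 Gy and at both doses, 0 to 4 for day 7 at 7.4 Gy, 0 to 5 for day 7 at both doses and 2 to 4 between days 4 and 7. Of these, 0 to 3, 0 to 1 and 0 to 2 of the last 3 comparisons were at least 2-fold. The deviations of same-numbered animals from their group means had a median correlation of 0.03 over 62 pairs (from -0.26 to 0.365), against -0.01 for other pairs. Of 24 arrays, 13 correlated best on average with arrays of their own number, a hint from the data and not from the design, so the numbers were not taken as a pairing. Position could not be fitted for days 7 and 12 against the controls or day 4, and normexp on spot means was not run, since the scanner files used here hold spot medians. Quantile scaling moved the median of all probes by at most 0.06.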
